A study of Danio rerio with 3 samples.

Results

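Dense clusters of H3K27ac with no called H3K27me3 were studied in the posterior trunk of wild-type zebrafish embryos at 16 hours post fertilisation. H3K27ac regions of replicates 1 and 2 were intersected in bp, and the resulting intervals were joined across gaps of at most 12.5 kb. Clusters with 5 or more intervals were kept where no H3K27me3 region overlapped the span from the first base to the last. This left 295 of 532 dense clusters, and their members are 1827 of the 27647 H3K27ac intervals found in both replicates. All 3 libraries were made by CUT&RUN, in which a nuclease tethered to an antibody releases the DNA around a histone mark. H3K27me3 was measured in 1 library and H3K27ac in 2 libraries. All libraries share genotype, tissue and stage, and the labels name no treatment. Whether both H3K27ac replicates go back to separate clutches is not stated, and the spread between replicates may then be technical. The tissue is a mixture of cell types, and a high level in a few cells cannot be told apart from a low level in many.

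Acetylation of lysine 27 on histone H3 is placed by the acetyltransferases p300 and CBP at active enhancers and promoters. Methylation of the same lysine is placed by Polycomb repressive complex 2 and marks repressed genes, and 1 histone tail cannot carry both. Some runs of closely spaced acetylated elements with high signal, called super-enhancers, are known in many tissues from the neighbourhood of genes that define cell identity. No signal cutoff was used here, so the clusters are not named as such. Here the members are named by position on danRer11. No annotation or genome of that build was used here, so the genes beside them and their sequences were not analysed here.

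The members were chosen by whether regions were called in all 3 lists, so the levels below describe them and carry no test. The lists held 45534 and 60427 H3K27ac regions in replicates 1 and 2 and 17121 H3K27me3 regions. Read totals were not used here. The genome-wide background of the H3K27me3 list was 0.3701 tags, 33.6% of that of H3K27ac replicate 2, and that of H3K27ac replicate 1 was 73.2%, if the same genome size was used. The level used throughout is the 10-kb tag density. It is the local background at a summit divided by the genome-wide background of its list. The local background was worked out from the fold and p-value that the authors deposited. It is read as the mean coverage of the 10-kb window around the summit, to which each tag of 200 bp adds 0.02. The lowest density is 1. Neighbouring members share much of a window, so their densities are not independent.

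The 295 clusters were short runs of narrow intervals. They spanned 2.74 to 82.9 kb with a median of 26.3 kb, or 8.23 Mb in all. The members covered 8.61% of this length, and a median of 8.71% of each span. Clusters of exactly 5 intervals made up 148 of the 295, and 19 had 10 or more. Members had a median width of 360 bp, and the gaps between neighbours had a median of 4927 bp. Gaps under 1000 bp made up 376 of the 1532 gaps, or 24.5% (exact 95% interval 22.4 to 26.8%). Over the gaps of all intervals the share was 30.6%. It was 33.9% in clusters of 2 to 4 intervals and 18.2% in dense clusters holding H3K27me3.

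The cluster with most members, at chr17:37682989-37765922, held 20 intervals with 7787 bp over 82.9 kb. Density was lowest at its left end, with 7.74 in replicate 1 and 6.70 in replicate 2 at chr17:37682989-37683300. The members next in line, as far as chr17:37721711-37722120, all lay between 12.1 and 14.2 in both replicates. The highest values were near the right end, with 19.3 and 20.4 in replicates 1 and 2 at chr17:37754378-37754969. The neighbour at chr17:37757905-37758527 had 19.2 and 18.99. The replicates thus placed the low and the high end of this cluster at the same members. The nearest H3K27me3 regions lay 57.2 kb to the left and 112 kb to the right.

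The next cluster by members, at chr5:32757541-32816647, had 18 intervals with 6263 bp over 59.1 kb and a different shape. Its first member had densities of 5.76 and 6.36 in replicates 1 and 2, and its last member 7.86 and 6.30. Between them replicate 1 was highest at chr5:32779867-32780072, with 16.5 (16.5 in replicate 2). Replicate 2 was highest at chr5:32794582-32795181, with 17.6 (16.2 in replicate 1), in a region that also holds the member before it. The level was therefore high in the middle and low at both ends in each replicate. No region called in 1 replicate alone lay in this span. The nearest H3K27me3 region, 15.8 kb to the right, had the lowest possible density of 1, and on the left the nearest was 129.9 kb away.

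A cluster of 14 intervals at chr18:49307187-49370430 was less dense and differed between its parts. The member at chr18:49335948-49336625 had 10.2 and 10.1 in replicates 1 and 2. To the right, chr18:49349158-49349414 had 2.90 and 4.597, and the last member had 3.75 and 5.38. Replicate 2 was higher at both of these, and its own highest member was chr18:49338866-49339511, with 8.91 in replicate 1 and 10.4 in replicate 2. The cluster next in number, at chr7:53282045-53355993 with 13 intervals over 73.9 kb, reached its highest value at its last member, with 13.0 in replicate 1 and 9.90 in replicate 2. Replicate 2 instead had its highest value, 10.4, at chr7:53324693-53324783 and chr7:53324883-53325393, which lie in 1 region of that replicate. The place of the highest member of this cluster is therefore not settled by the replicates.

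**Figure D1:**
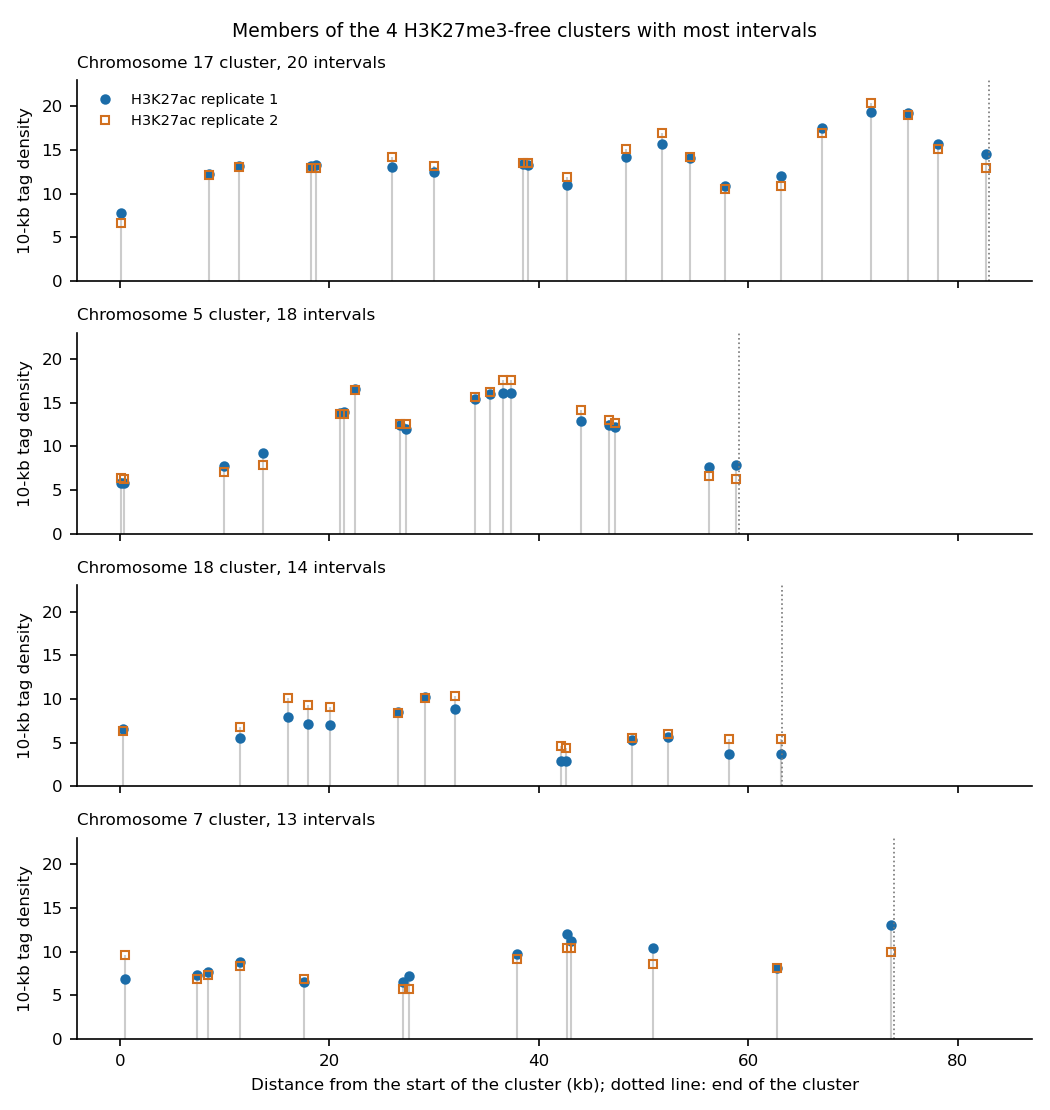
The 10-kb tag density of each member (y axis, in multiples of the genome-wide background) is plotted against its distance in kb from the start of its cluster for the 4 free clusters with most intervals; circles are H3K27ac replicate 1 and squares replicate 2. The chromosome 17 cluster peaks near its right end, at 19.3 and 20.4, and the chromosome 5 cluster in its middle.

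The 20 clusters with most intervals lay on 15 chromosomes and held 235 members. Their median density ran from 4.43 to 14.9 in replicate 1, with a median of 10.1, and from 4.61 to 17.0 in replicate 2, with a median of 11.03. The lowest was chr15:4481130-4528584, with 10 intervals and 5640 bp, and the highest was chr22:16494485-16529758, with 11 intervals and 4600 bp. The chromosome 22 cluster lay 3.12 kb from an H3K27me3 region with a density of 134, and its densest member still had 19.1 and 20.3 in replicates 1 and 2. Across the 20 clusters the nearest H3K27me3 was 3.12 to 149 kb away. The median density was higher in replicate 2 in 16 of the 20, by at most 0.25 on the log2 scale. Over all 295 free clusters it was higher in replicate 2 in 161, or 54.6%.

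Among the other clusters of this size, chr16:35479436-35539455 with 12 intervals over 60.02 kb was dense through most of its length. It reached 17.7 and 16.95 in replicates 1 and 2 at chr16:35489448-35489648 and had 13.05 and 15.3 at its last member, against 8.56 and 9.07 at its first. The 11 intervals at chr2:21783942-21831542 had a single high place toward the right. Density was 7.62 and 7.00 at the first member, 18.5 and 20.4 at chr2:21819508-21820110, and 7.27 and 5.81 at the last. The cluster at chr5:41322700-41376355, with 12 intervals, had a median density of 11.46 and 11.76, with H3K27me3 of density 11.8 lying 15.5 kb to its left. The cluster at chr13:33245520-33317555 spread 11 intervals over 72.04 kb at a lower level, between 3.97 and 8.98 in replicate 1 and between 4.42 and 8.36 in replicate 2. It was also the one among the 20 where replicate 1 exceeded replicate 2 most, with medians of 6.52 and 5.41. At chr14:491828-532058, 11 intervals had a median of 5.11 and 5.31, and none exceeded 7.85.

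Of the 10 densest clusters, 4 were among the 20 with most intervals out of 295. The first by its densest member was chr5:13274656-13290603, with only 6 intervals over 15.9 kb. Its member at chr5:13286968-13287223 had 24.9 in replicate 1 and 26.7 in replicate 2, from 1002 and 1470 tags in the window. The density there was 25.8 ± 1.31 (SD, n = 2). The left end of this cluster, at chr5:13274656-13274871, had 12.9 and 12.5. The next was chr11:18702672-18736153, with 9 intervals and 24.1 ± 1.86 (SD, n = 2) at chr11:18707764-18707982. Its replicates stood in the opposite order, with 25.4 in replicate 1 and 22.8 in replicate 2. The third, chr9:23320549-23354516 with 10 intervals, had high members near both ends. Replicate 1 was highest at chr9:23329808-23330294, with 23.4, and had 21.2 at chr9:23354162-23354516, while replicate 2 had 21.7 and 23.7 at these members. The replicates thus differed on which of these members was higher.

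The remaining clusters among the 10 densest reached 19.4 to 21.8 at their densest member (mean of both replicates). At chr4:22457966-22480514, 9 intervals over 22.5 kb had a median of 17.2 and 17.5 in replicates 1 and 2. At chr7:34130805-34168632, 10 intervals peaked at chr7:34148332-34148575, with 19.3 and 22.9, and had a median of 11.7 and 11.6. The cluster at chr1:18835612-18879922 was the most uneven of these, with 19.4 and 20.2 at chr1:18859331-18859603 and a median over its 9 intervals of only 5.41 and 6.504. At chr8:20415708-20455432, 8 intervals reached 18.4 and 20.7, and at chr15:14029582-14059870, 5 intervals reached 18.9 and 20.02. A compact cluster outside these 10, chr21:5006031-5008770, put 5 intervals into 2.74 kb with a median of 13.2 and 13.3, and its members covered 45.2% of the span.

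The deposited fold, which is the authors' value, was low at these places. At the densest member on chromosome 5 it was 2.09 and 2.01 in replicates 1 and 2, with summit pileups of 43 and 60 tags, where the median of all members was 3.599 and 3.645. The fold sets the summit against the local background. Density is that same background divided by the genome-wide value, so a low fold at high density is partly built in. Whether the whole window is acetylated was not tested. Across the 1827 members fold and density had a Spearman rho of -0.45 in replicate 1 and -0.41 in replicate 2. In dense clusters holding H3K27me3 rho was much the same, with -0.41 and -0.45. It was -0.28 and -0.21 in clusters of 2 to 4 intervals and -0.27 and -0.19 over all 27647 intervals. Over the 10646 solitary intervals, which lie more than 12.5 kb from the next, rho was 0.02 and 0.10. Fold and density come from the same 2 deposited columns, so these values describe the lists.

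Of the 5 widest members, 4 had folds above the median of members in both replicates. The widest, chr3:40931933-40933604 with 1672 bp, had densities of 8.66 and 9.68 and folds of 4.26 and 5.32 in replicates 1 and 2. The member at chr18:16936325-16937663, with 1339 bp, had densities of 7.77 and 7.72 and folds of 6.65 and 6.80. The exception was chr20:28930038-28931293, with 1256 bp, where densities were 12.5 and 15.04 and folds 3.21 and 3.59. Members of at least 1000 bp numbered 36, or 1.97% (exact 95% interval 1.38 to 2.72%), against 3.86% of all intervals. The share was lower still, 0.99%, in dense clusters holding H3K27me3. It was 3.27% in clusters of 2 to 4 intervals and 5.37% in solitary ones. At the other end, 70 members measured under 100 bp, or 3.83%, against 4.68% of all intervals and 4.27% in dense clusters holding H3K27me3. The narrowest had 2 bp, such as chr4:22472567-22472568, where regions of 273 and 200 bp in replicates 1 and 2 met at their edges. Such members count in the rule like any other.

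Set beside other H3K27ac intervals, members were high in density and low in fold, as were those of dense clusters with H3K27me3. The median density of members was 6.70 in both replicates, against 7.07 and 7.25 for the 1615 intervals of dense clusters holding H3K27me3 in replicates 1 and 2. It was 4.66 and 4.72 in clusters of 2 to 4 intervals and 3.08 and 3.09 in solitary ones. With clusters built without H3K27ac replicate 1, which gave 7811 members, their median density in replicate 2 was 4.34. Replicate 2 also built those clusters, so this is no separate check. The 1827 members had 6.68 (mean of both replicates). A high density follows in part from the rule, which selects places with many regions. The median fold ran the other way, with 3.599 and 3.645 in members, 3.45 and 3.35 in dense clusters with H3K27me3, 3.96 and 4.16 in clusters of 2 to 4, and 4.38 and 4.43 in solitary intervals. The median summit pileup of members was 22 tags in replicate 1 and 31 in replicate 2, much as in dense clusters with H3K27me3 (23 and 31). It was 18 and 26 in clusters of 2 to 4 and 15 and 19 in solitary intervals. Members with a −log10 q of at least 5 in both replicates numbered 760, or 41.6%, where 41.5% of all 27647 intervals passed. The rule used these calls, so nothing is read from that share.

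**Figure D2:**
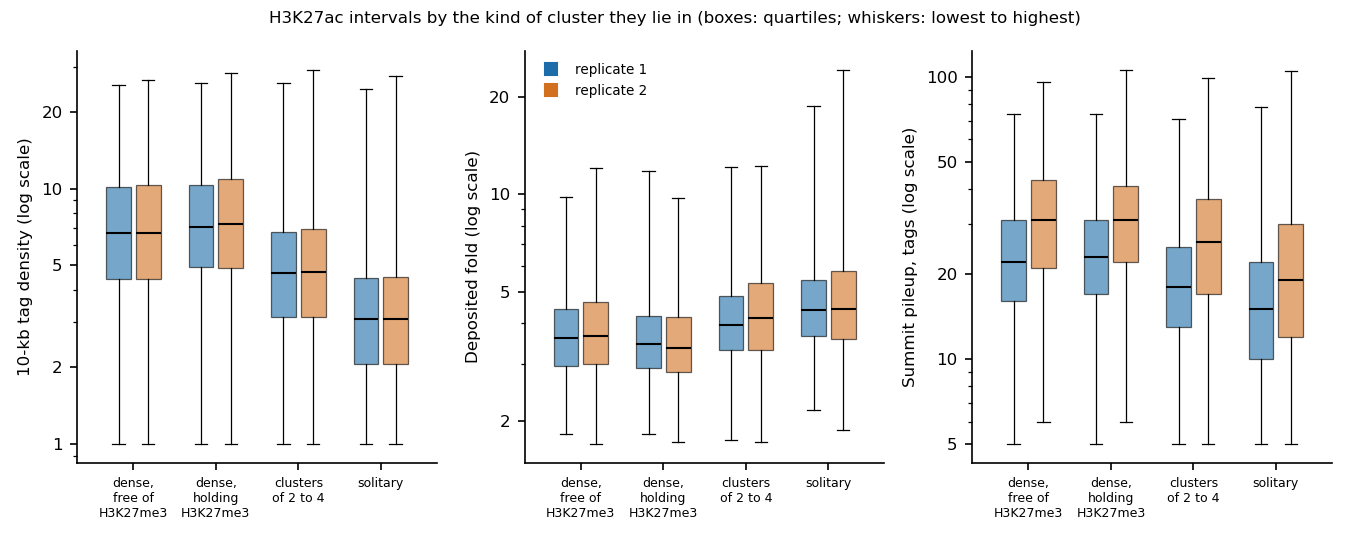
Density, deposited fold and summit pileup (log scales) are shown for H3K27ac intervals in dense clusters free of H3K27me3, in dense clusters holding it, in clusters of 2 to 4 intervals and in solitary intervals; boxes are quartiles with the median, whiskers reach the lowest and highest interval, and colours are replicates. Median density falls from left to right past the second set, to 3.08 and 3.09, while median fold rises to 4.38 and 4.43.

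The H3K27ac density of free clusters overlapped widely with that of dense clusters holding H3K27me3. Cluster medians in replicate 1 ran from 4.71 to 9.30 between the quartiles of free clusters, against 5.26 to 9.50 in clusters with H3K27me3. The median over clusters of their median density was 6.60 ± 0.0772 in the 295 free clusters (SD of the 2 replicates). In the 150 clusters whose H3K27me3 regions all had a −log10 q under 5 it was 7.82 ± 0.0408, and in the 87 with an H3K27me3 region of 5 or more it was 6.16 ± 0.0994 (SD, n = 2 each). Both replicates measured the same clusters, so these SDs leave out the spread between clusters, which in free clusters was 3.57 in replicate 1 and 3.697 in replicate 2 (SD). The groups were split by the H3K27me3 calls that the rule used, and no test was run. Spans also differed, with medians of 26.3, 29.5 and 33.2 kb in that order, and their part in the difference was not tested. Among clusters of exactly 5 intervals, spans were closer, with 22.5 kb in 148 free clusters and 23.2 kb in 101 that held H3K27me3. Median densities there were 6.004 and 6.12 in replicates 1 and 2 for free clusters, against 6.95 and 6.96 for the others. Among clusters of 8 or more intervals the order was the other way, with 9.38 and 9.72 in 44 free clusters, against 9.01 and 8.58 in 59 that held H3K27me3. Spans there had medians of 41.9 and 52.8 kb.

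The share of clusters that were free was lower among those with more intervals, which is a description with no test. It was 59.4% among clusters of 5 intervals (exact 95% interval 53.1 to 65.6%, 148 of 249) and 42.7% among those of 8 or more (exact 95% interval 33.0 to 52.8%, 44 of 103). Of the 24 clusters with 12 or more intervals, 7 were free, or 29.2% (exact 95% interval 12.6 to 51.1%). The median span was 22.7 kb for clusters of 5 and 73.9 kb for those of 12 or more, and a longer span has more room for an H3K27me3 region. The intervals cover counting error only, since neighbouring regions are not independent and H3K27me3 was measured in 1 library. Reads behind the calls carry no molecular identifiers as far as the labels say. Just inside the rule, the 148 free clusters of 5 intervals had median densities of 6.004 and 6.12 in replicates 1 and 2 and a median span of 22.5 kb. Just outside it, 360 clusters of 4 intervals without H3K27me3 had 5.92 and 5.95 and a span of 15.3 kb.

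**Figure D3:**
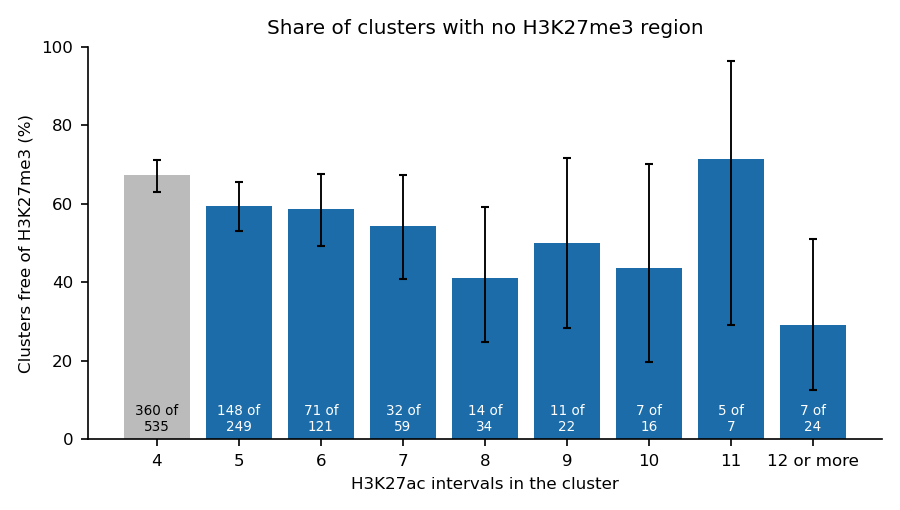
Bars give the percent of clusters with no H3K27me3 region by the number of H3K27ac intervals they hold, with exact 95% intervals as error bars and counts at the foot; the grey bar, 4 intervals, lies outside the rule. The share is 59.4% at 5 intervals and 29.2% at 12 or more, with 71.4% at 11 from 5 of 7 clusters.

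Free clusters with the most intervals had a higher median density, though the order over sizes was uneven. Free clusters of 10 or more intervals had median densities of 9.68 and 10.5 in replicates 1 and 2, 6.43 and 6.33 in those of 7, and 6.004 and 6.12 in those of 5. Dense clusters holding H3K27me3 went the same way, with 6.95 and 6.96 at 5 intervals and 9.01 and 8.58 at 8 or more. Across the 295 clusters the Spearman rho of interval number with median density was 0.22 in each replicate, and that of span with density was -0.06. Interval number is what the rule counts, and neighbouring members share much of a window, so these values are descriptions. The range between clusters was wide. The median density of a cluster ran from 1.66 to 19.4 in replicate 1 and from 1.60 to 19.96 in replicate 2. On the log2 scale the SD of cluster means was 0.69 and 0.70 in replicates 1 and 2, and the SD of members around their own cluster was 0.54 and 0.57. The densest member of a cluster had a median of 2.15 and 2.299 times the density of its sparsest in these replicates.

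Members at the ends of a cluster were less dense than those inside. In replicate 1 the end members had a median of 6.05 and the inner members 6.94, and ends were lower in 202 of 295 clusters. In replicate 2 the values were 5.95 and 7.06, with ends lower in 205. In dense clusters with H3K27me3, ends were lower in 176 and 175 of 237. The window of an end member reaches past the cluster, where by the rule no interval lies within 12.5 kb, so a lower value is partly built in. An end member was the densest of its cluster in 77 clusters in replicate 1 (26.1%) and 79 in replicate 2 (26.8%). Of all members pooled over clusters, 32.3% were at an end. The pooled share gives large clusters more weight, so it is no baseline for the shares of clusters.

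The replicates agreed closely on density and less on the shape of regions. Across the 1827 members the Spearman rho between replicates was 0.97 for density, 0.75 for summit pileup, 0.55 for the deposited fold and 0.30 for region width. In dense clusters holding H3K27me3 rho was 0.97, 0.77, 0.56 and 0.32 in that order, and over all intervals 0.96, 0.81, 0.59 and 0.48. For region width it was 0.67 in solitary intervals. The intervals of each set share positions and neighbours, and no test was run. On the log2 scale, replicate 2 minus replicate 1 had an SD of 0.23 over members, around a median of 0.02. No cluster differed by more than 1.5 times in median density. The widest difference in each direction was at chr9:2603763-2631180, with 5.58 in replicate 1 and 4.05 in replicate 2, where replicate 1 was higher, and at chr1:27553-44611, with 1.79 and 2.54, where replicate 2 was higher. The cluster at chr18:16916356-16937663 had 6.95 and 9.88, a log2 ratio of replicate 2 over replicate 1 of 0.51. The summits of the replicates lay a median of 73 bp apart. A region of replicate 2 was shared by neighbouring members in 363 of 1827 cases (19.9%) and a region of replicate 1 in 142 (7.77%). Members are therefore not all separate regions. Over all 27647 intervals the shares were 11.9% in replicate 2 and 4.597% in replicate 1. Those shares count solitary intervals, which cannot share a region. Regions were at most 2677 bp wide, and intervals up to 12.5 kb apart were joined. The shares in replicates 2 and 1 were 20.1% and 7.63% in clusters of 2 to 4 intervals. In dense clusters holding H3K27me3 they were 13.3% and 5.82%.

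**Figure D4:**
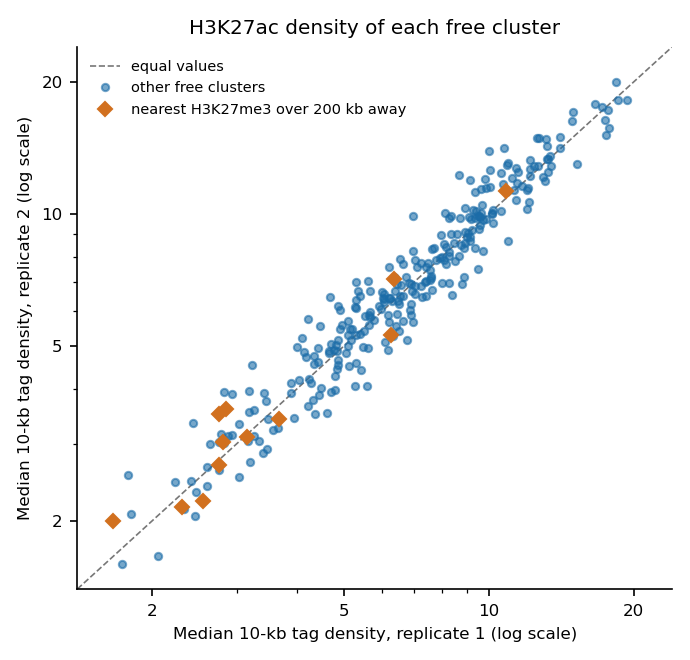
Each point is 1 of the 295 free clusters, with its median 10-kb tag density in H3K27ac replicate 1 (x axis) and replicate 2 (y axis) on log scales and a dashed line of equal values. Points lie close to the line, from 1.66 to 19.4 in replicate 1 and from 1.60 to 19.96 in replicate 2. Most of the 12 clusters over 200 kb from any H3K27me3 region (diamonds) lie at the low end.

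Being free of H3K27me3 did not mean being far from it. The nearest H3K27me3 region lay a median of 47.9 kb from the span, over the 293 clusters with such a region on their chromosome or scaffold. It was under 5 kb away in 26 clusters (8.87%, exact 95% interval 5.88 to 12.7%) and over 100 kb away in 66. At chr23:2304665-2331937 H3K27me3 regions lay 0.106 kb to the left and 0.394 kb to the right of a cluster with median densities of 5.93 and 6.18. At chr22:26562969-26600205 the nearest lay 0.234 kb to the right. For comparison, the nearest H3K27me3 outside the span was a median of 17.4 kb away in dense clusters holding H3K27me3. The H3K27me3 density of these nearest regions of free clusters had a median of 2.81 in 1 library. It exceeded 10 beside 40 of the 293 free clusters (13.7%). For dense clusters holding H3K27me3, the nearest region outside the span had a median density of 4.51. Neither value was set against all H3K27me3 regions.

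Most of the clusters farthest from H3K27me3 were also sparse in H3K27ac. The 12 clusters with none within 200 kb had a median density of 2.83 and 3.26 in replicates 1 and 2, against 8.04 and 7.92 in the 26 clusters with one under 5 kb away. The 54 clusters at 100 to 200 kb had 6.19 and 6.23, so most of the drop lay beyond 200 kb. The farthest was chr3:57075003-57102549, with no H3K27me3 for 1236 kb to the left and 843 kb to the right, and densities of 2.85 and 3.597. The clearest exception was chr12:11052790-11081818, with H3K27me3 206 kb away and densities of 10.9 and 11.3. Densities were also 6.36 and 7.12 at chr21:3432483-3463367 and 6.26 and 5.30 at chr16:5499225-5525510. The 12 were not all separate places. Those at chr21:2142223-2185716 and chr21:2209566-2249242 lay 23.8 kb apart, and those on chromosome 22 all lay near its start.

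**Figure D5:**
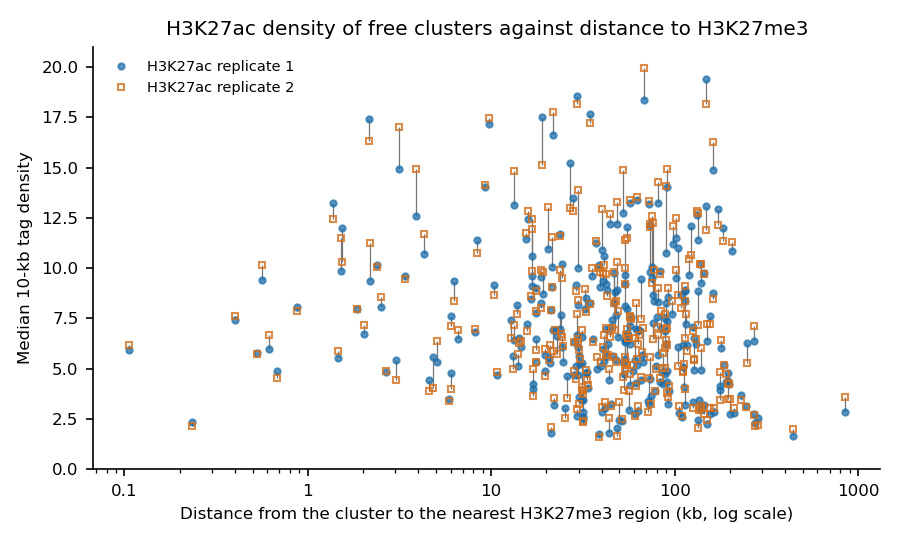
Median 10-kb tag density of each free cluster (y axis) is plotted against the distance in kb to the nearest H3K27me3 region (x axis, log scale), with circles for H3K27ac replicate 1, squares for replicate 2 and a line joining the pair. Up to 200 kb the clusters cover almost the whole range of density, and beyond it 1 cluster, with 10.9 and 11.3, lies above 10.

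The start of chromosome 22 held free clusters of low density at short and long distances from H3K27me3. As far as position 2176193 it held 8 free clusters, with median densities of 1.66 to 3.45 in replicate 1 and 1.66 to 3.74 in replicate 2. Every one of them was below the median of free clusters, 6.55 and 6.66 in replicates 1 and 2. Of these, chr22:1779363-1822537 had 8 intervals with medians of 2.06 and 1.66. The first cluster lay 31.7 kb and the next 21.9 kb from H3K27me3, among the 14 H3K27me3 regions called up to position 786284. Of the others, 3 lay over 200 kb from H3K27me3, the nearest of these at 271 kb. The remaining ones lay 48.7, 49.9 and 109.7 kb away. Between positions 786284 and 2892967 a single H3K27me3 region was called, at chr22:1871250-1872313, with a density of 8.11. By contrast the denser chromosome 22 cluster at chr22:16494485-16529758, described above, had 14.9 and 17.0.

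Free clusters sometimes lay in a row. In 7 runs, neighbouring free clusters were more than 12.5 but less than 20 kb apart. The longest run, at chr6:50475681-50638196, had 3 clusters with 24 intervals and 7206 bp over 163 kb, more intervals than any single free cluster. Its densest member reached 14.9 and 15.6 in replicates 1 and 2. A pair at chr21:37554420-37650234 held 18 intervals over 95.8 kb, with median densities of 4.91 and 6.03 in its left cluster and 9.85 and 9.72 in its right one. A pair at chr16:35450531-35539455, separated by 13.6 kb, held 17 intervals and reached 17.7 and 17.0. The next dense cluster of either kind lay within 100 kb of 56 of the 295.

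All 25 numbered chromosomes held at least 1 free cluster, and 2 more lay on unplaced scaffolds. Chromosomes 7 and 22 had the most, with 19 of 33 and 19 of 25 dense clusters free. The share was 80% on chromosome 15 (8 of 10), 78.9% on chromosome 6 (15 of 19) and 31.6% on chromosome 13 (6 of 19). Chromosome 5 had the most dense clusters, 36, of which 16 were free. Differences between chromosomes were not tested.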

How the data were processed

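The authors deposited 1 peak list for each library, on danRer11 per the submitters' processing notes, which name MACS2 2.2.7.1, Picard 3.0.0, bedtools 2.30.0, Bowtie2 2.4.5, cutadapt 4.1 and SAMtools 1.16.1 without roles or settings. For each summit the deposited lists give a fold (summit over local background, a ratio), a score that was not used, the place of the summit, and 2 columns on a −log10 scale that hold the q-value and the p-value. Rows that touched were merged into regions, each keeping its highest values, and the mitochondrial genome was dropped. Overlap means at least 1 bp.

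The fold was taken as (pileup + 1) / (background + 1) and the p-value as a Poisson upper tail, as MACS2 computes them, and the pair was solved for pileup and background, and every line was met within 0.001 on the −log10 scale. Backgrounds above the genome-wide value, divided by 0.02, lay within 0.02 of a whole number, read as the number of tags of 200 bp in 10 kb. That reading comes from the values, not from the labels. The inversion and the interval arithmetic were tested on simulated data. Ranges and shares are descriptions, with exact Clopper-Pearson 95% intervals where given. These intervals cover counting error only and treat gaps, members and clusters as independent, which they are not.

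The members and the lists were chosen with earlier results of these data known. Clusters to be named were the 20 with most intervals and those among the 10 densest. Members to be named were the 10 densest, the 5 widest and the 5 narrowest. Not all of these are described above, and other members of the named clusters are. Clusters at the extremes of distance, of difference between replicates and of density, and the runs on chromosomes 6, 16, 21 and 22, and the compact cluster on chromosome 21, were chosen after their values were seen. The planned motif and gene-list results would use a danRer11 genome with its genes and are not reported. Alternatives changed the gap, the thresholds, the overlap, the number of intervals, the replicates and the chromosomes. The work used scipy 1.17.1, matplotlib 3.10.9, pandas 2.3.3 and numpy 2.4.6 under Python 3.11.15.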

Additional observations from a re-analysis of the deposited data

How the results depend on the processing

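The rule gave 295 free clusters, 1827 members and a free share of 55.5% (exact 95% interval 51.1 to 59.7%). Leaving out 1 H3K27ac replicate at a time gave 665 to 1159 clusters and 4280 to 7811 members, with shares of 52.2 to 52.9%, so counts of clusters depend on requiring both replicates. The 1159 came without H3K27ac replicate 1 and the 665 without H3K27ac replicate 2. H3K27ac in either replicate gave 2004 clusters and 14110 members. Gaps of at most 5 kb gave 25 clusters with 137 members and a share of 67.6%, and gaps of at most 20 kb gave 489 with 3162 and 47.7%. Limiting both H3K27ac lists to a −log10 q of 5 or more gave 17 clusters and 99 members. Counting only H3K27me3 regions at a −log10 q of 5 or more left 445 clusters free, with 2858 members and a share of 83.6%, since all H3K27me3 regions were weaker in 150 of the 237 other clusters. Requiring 4 or more intervals gave 655 clusters, 3267 members and 61.4%, and 7 or more gave 76, 661 and 46.9%. Asking for no H3K27me3 within 5 kb of either end lowered the share to 50.6%. Counts stayed within 1.5 times of the main ones with intersections of at least 100 bp, without unplaced scaffolds and chromosome 4, and with 5 or more distinct regions in each replicate (203 clusters), the last chosen after seeing the data. The members' median density was 6.68 under the rule, 4.34 without H3K27ac replicate 1, 5.28 without H3K27ac replicate 2, 3.34 with either replicate, 12.52 with 5-kb gaps, 5.54 with 20-kb gaps and 10.2 with the stricter H3K27ac lists. With 1 replicate left out, the density was that of the replicate kept. The members' median density was 6.60 to 7.08 in the other 4 settings in which it was worked out. These were the stricter H3K27me3 list, no H3K27me3 within 5 kb, intersections of at least 100 bp, and no unplaced scaffolds or chromosome 4. The median span was 9893 to 37645 bp over all alternatives with a density, against 26295 bp under the rule. Neither was worked out for other numbers of intervals or for 5 or more distinct regions. No paired analysis was possible because the groups share only replicate number 1. Depth limits the call of freedom: an H3K27me3 region needed a pileup of at least 4 tags at the genome-wide background, in 1 library with 33.6% of the background of H3K27ac replicate 2, so free means that no region was called.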

Other observations

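Between the members, the spans of free clusters held regions that only 1 replicate called. In replicate 1 these were 133 of 1889 regions in the spans, or 7.04%, where 40.7% of all its regions met none of replicate 2. In replicate 2 they were 233 of 1873, or 12.4%, where 57.0% of all its regions met none of replicate 1. The rule selects places called in both replicates, so low shares follow in part from it. In 113 of the 295 clusters no region of a single replicate lay in the span. The cluster with 14 intervals at chr18:49307187-49370430 held 5 such regions of replicate 2 and none of replicate 1.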
